A study of Danio rerio with 6 samples.

Results

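The genes described here encode receptors for fast and modulatory neurotransmitters, the enzymes that make GABA, and kinases and scaffolds of the postsynaptic membrane. They were taken by symbol from the array's platform annotation: symbols starting with gabr, gabarap, gad1, gad2, gria, grik, grin, grm, camk2, dlg, glr, chrn, chrm, htr, drd, adra or adrb, without adra2a. The rule sets no limit on a measured value, but it was chosen with earlier results of these data known. The rule found 43 genes, measured by 52 probe sets, among 8793 genes and 15502 probe sets. RNA came from the telencephalon of sexually mature male zebrafish kept with fadrozole at 200 µg/L for 10 days or kept as controls, with 3 arrays per group and about 30 pooled telencephalons per array. Fadrozole inhibits aromatase, the enzyme that makes estrogens from androgens, and the comparison asks how telencephalic transcripts respond to its inhibition in males. The labels name no strain or age beyond sexual maturity, and they do not say whether the pools of one group were set up separately, so p-values reflect only how far these arrays differ from each other, which may be technical.

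Neurotransmitter receptors fall into receptor channels, which open an ion pore when the transmitter binds, and G protein-coupled receptors, which act through intracellular signals. GABA-A, glycine and nicotinic acetylcholine receptors are channels of the Cys-loop family, while AMPA, kainate and NMDA receptors are glutamate-gated channels. In the fish telencephalon, as in other vertebrates, glutamate carries most fast excitation and GABA most fast inhibition, and dopamine, serotonin, noradrenaline and acetylcholine modulate both. Many of these genes exist in zebrafish as pairs, marked a and b, left by a genome duplication in the ancestor of teleost fish.

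The deposited values are linear ratios to the median of the control arrays, so levels below are log2 ratios to that median after each array's overall shift was removed. A ratio of exactly 1 on a control array therefore appears as 0.11, -0.25 or 0.14 on control replicates 1, 2 and 3. The brightness of a probe set is lost, which means that neither the presence of telencephalic markers nor the detection of a receptor can be checked. By slide number, replicates 1 and 3 of both groups (4 arrays) form one run and replicate 2 of both groups (2 arrays) another. In pooled tissue, fewer cells of a type and less RNA per cell cannot be told apart.

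None of the 43 genes passed limma's test adjusted over all genes (adjusted p from 0.945 to 0.999), nor did any of the 8793 genes (0%). Before adjustment, 2 of the 43 had p under 0.05, the muscarinic receptor gene chrm2a, lower, and the kainate receptor gene grik6, higher. That is 4.65% of the members, against 4.09% of all genes, 2.12% higher and 1.98% lower. The arrays of the groups did not overlap for 4 members (9.3%), chrm2a lower and grik6, grik1a and glrba higher, against 7.82% of all genes, 3.93% higher and 3.89% lower. Both shares are near those of the whole array. A change of at least 1.5-fold either way was measured for 11 members (25.6%), against 26.9% of all genes. By sign, 20 members were higher and 23 lower, with a median log2 difference of -0.03, where 50% of all genes were higher and their median difference was -0.0002.

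**Figure D1:**
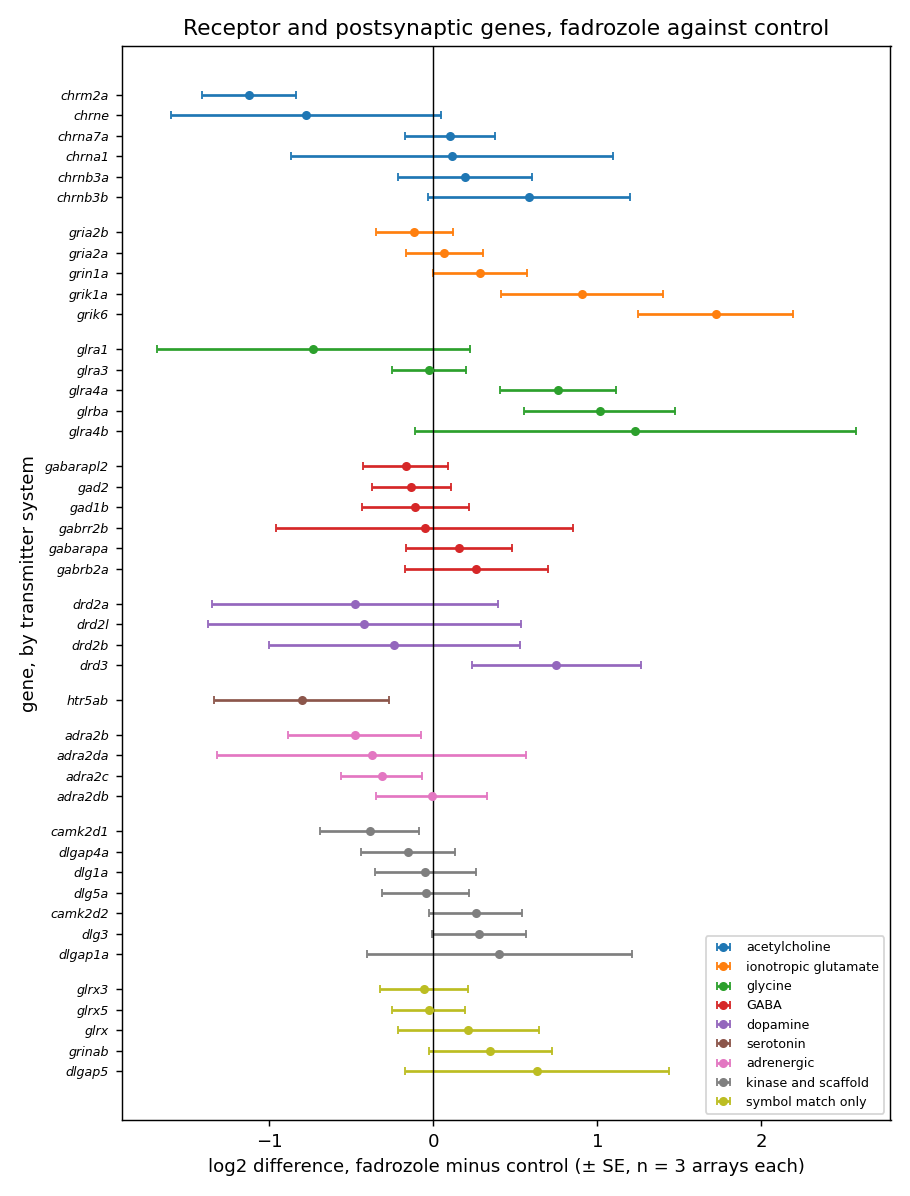
Log2 difference, fadrozole minus control, of each of the 43 genes (points, with standard errors as bars, n = 3 arrays per group), grouped by transmitter system. The points run from chrm2a at -1.12 to grik6 at 1.72, and all 4 adrenergic genes lie below 0.

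Acetylcholine acts through muscarinic receptors, which couple to G proteins, and nicotinic receptors, which are channels built of several subunits. The muscarinic gene chrm2a, whose mammalian M2 counterpart inhibits adenylyl cyclase, had levels of -0.98, -1.51 and -0.90 on fadrozole replicates 1, 2 and 3, against 0.02, -0.25 and 0.23 on control replicates 1, 2 and 3. The fadrozole arrays were all lower than the lowest control array, with a gap wider than the range within either group. The log2 difference was -1.12 ± 0.29 (SE, n = 3 per group), which is 2.18-fold lower, with an unadjusted limma p of 0.00768, rank 70 of all genes, and an adjusted p of 0.945. With 3 arrays a side, 0.1 is the smallest two-sided p that an exact permutation test allows. Within the larger run of slides the difference was -1.06 and within the smaller -1.25. Leaving out any one array kept it between -1.25 and -0.93, and over all alternatives the unadjusted limma p lay between 0.00339 (slide run as a block) and 0.0263 (without control replicate 3).

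Of the 5 nicotinic subunit genes, 4 were higher and 1 lower, with a median of 0.11, and the groups overlapped for each. The neuronal beta subunit gene chrnb3b stood at 0.68, 0.52 and 0.74 on the fadrozole arrays, against -0.97, -0.25 and 1.42 on the control arrays. The fadrozole levels were close together, while the control levels spanned both sides of them, and the difference of 0.58 ± 0.62 was smaller than its standard error and came to 0.06 without control replicate 1. Its copy chrnb3a differed by 0.19 ± 0.41. The homomeric alpha 7 subunit gene chrna7a, at 0.10 ± 0.27, had the smallest spread between arrays of this system, an SD of 0.27.

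The other nicotinic members, chrna1 and chrne, encode subunits best known from the receptor of the nerve-muscle junction. The chrne level was -2.05, 0.05 and 0.31 on the fadrozole arrays, against 0.11, -0.82 and 1.34 on the control arrays, a difference of -0.78 ± 0.82. It rested on fadrozole replicate 1, without which it was -0.03. For chrna1 the levels ran from -1.66 to 1.39 on the fadrozole arrays and from -1.34 to 1.27 on the control arrays, with a difference of 0.11 ± 0.98. Of 9 measured skeletal muscle marker genes 6 were higher, with a median difference of 0.13. They spread widely: the troponin gene tnni2a.3 was at 2.92 ± 0.52, with no overlap between groups, and tnni2a.4 at 1.07 ± 0.44, while tnnt3a and tnnt3b were at -1.32 ± 1.02 and -1.46 ± 0.84. The part of muscle RNA in the receptor values was not tested.

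Glutamate receptor channels were measured by 5 genes, of which 4 were higher, with a median difference of 0.29 that came to 0.07 without fadrozole replicate 2. The gene grik6, which carries the symbol of a kainate receptor subunit, had levels of 2.10, 0.98 and 1.11 on the fadrozole arrays, against 0.11, -0.02 and -1.08 on the control arrays. The lowest fadrozole array was above the highest control array. The difference of 1.72 ± 0.47, or 3.30-fold higher, was the largest among the members, with a 95% interval from 0.57 to 2.88 and an unadjusted limma p of 0.0108 (adjusted p = 0.945). It was 2.08 in the larger run of slides and 0.99 in the smaller. Over the alternatives its unadjusted limma p lay between 0.00818 (variance trend) and 0.0340 (larger run alone), and with the slide run as a block it was 0.0219.

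The other kainate subunit gene, grik1a, stood at 1.11, 0.28 and 0.31 on the fadrozole arrays, against 0.11, 0.15 and -1.29 on the control arrays. These groups did not overlap either, but 2 control arrays lay just under 2 fadrozole arrays. The difference was 0.91 ± 0.49 over all arrays and 0.44 without control replicate 3, and it was 1.30 in the larger run of slides and 0.13 in the smaller.

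The AMPA receptor genes varied little from array to array. Both encode the GluA2 subunit, which in mammals makes the AMPA receptor nearly impermeable to calcium. For gria2a the levels were 0.20, 0.33 and 0.04 on the fadrozole arrays and 0.11, 0.30 and -0.05 on the control arrays. For gria2b they were -0.28, 0.01 and -0.15 on the fadrozole arrays and -0.19, -0.02 and 0.14 on the control arrays. The groups overlapped in both, with the lowest gria2b level on a fadrozole array and the highest on a control array. The differences were 0.07 (95% interval -0.51 to 0.64) for gria2a and -0.12 (-0.69 to 0.45) for gria2b, so a change of 2-fold in either direction lies outside both intervals.

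The NMDA receptor was represented by grin1a alone, which encodes a subunit of the type that every NMDA receptor needs. Its levels were 0.37, 0.87 and 0.06 on the fadrozole arrays, against 0.11, 0.15 and 0.18 on the control arrays. In these averages of 2 probe sets, fadrozole replicates 1 and 2 lay above the controls and replicate 3 below them. On neither probe set alone did fadrozole replicate 3 lie below all controls. The probe sets read -0.50 and 0.81 on control replicate 2, and 0.51 and -0.16 on control replicate 3. The difference of 0.29 ± 0.28 shrank to 0.07 without fadrozole replicate 2. No gene of the metabotropic glutamate receptors (grm) was found by the rule.

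**Figure D2:**
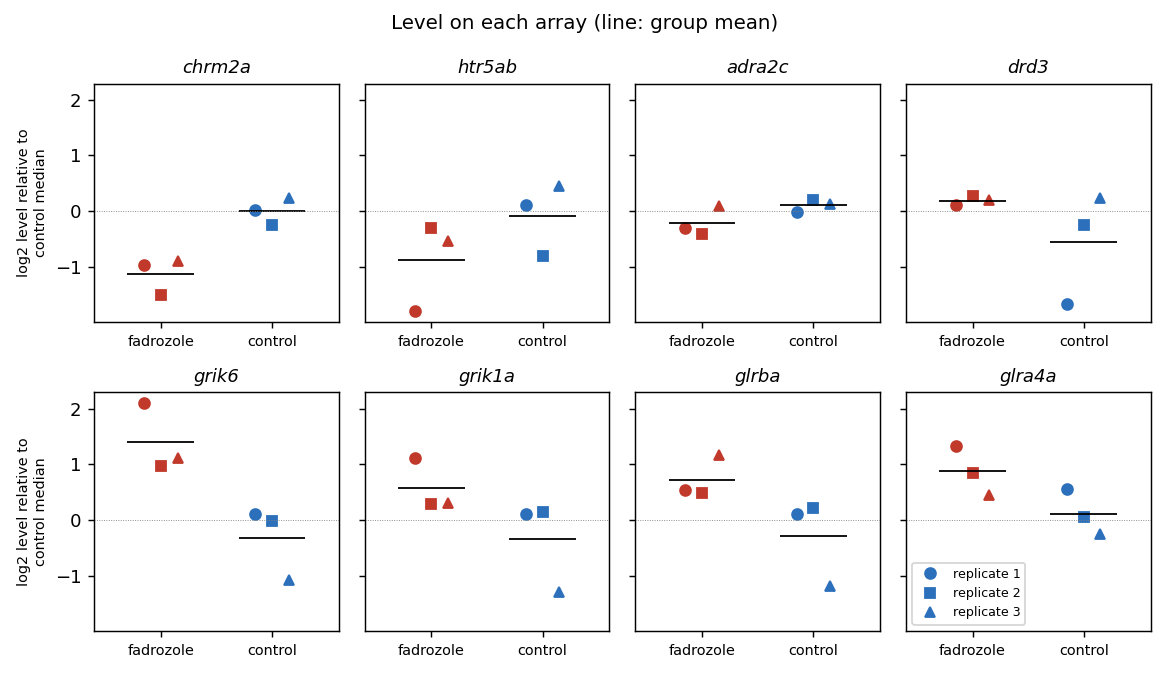
Log2 level relative to the control median on each array, for 4 genes of G protein-coupled receptors (top) and 4 of receptor channels (bottom), with fadrozole arrays in red and control arrays in blue. Marker shapes give the replicate number and lines the group means. Control replicate 3 is the lowest of the 6 arrays for grik6, grik1a, glrba and glra4a, at -1.08, -1.29, -1.19 and -0.26.

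Glycine receptors are inhibitory chloride channels known chiefly from spinal cord and hindbrain, built from alpha subunits and the beta subunit that anchors them at the synapse. Of their 5 genes 3 were higher, with a median difference of 0.76, or 0.45 without fadrozole replicate 1. The beta subunit gene glrba had levels of 0.53, 0.48 and 1.17 on the fadrozole arrays, against 0.11, 0.22 and -1.19 on the control arrays. The groups did not overlap, and control replicate 3 stood well below the other arrays. The difference was 1.01 ± 0.46 (limma, unadjusted p = 0.0710, adjusted p = 0.999), but 0.56 without control replicate 3, and it was 1.39 in the larger run of slides and 0.26 in the smaller.

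The alpha subunit gene glra4a averaged 0.87 ± 0.45 on the fadrozole arrays and 0.11 ± 0.41 on the control arrays (SD, n = 3 each), with overlap through fadrozole replicate 3 and control replicate 1. Averaged over its 2 probe sets, its difference of 0.76 ± 0.35 was 0.74 in the larger run of slides and 0.80 in the smaller. Neither probe set alone had that agreement between runs. One, at 1.38 ± 0.60 over all arrays, was at 1.95 in the larger run and 0.24 in the smaller. The other, at 0.14 ± 0.61, was at -0.47 in the larger run and 1.36 in the smaller. The copy glra4b was the least reproducible member, at 3.49, 2.91 and -0.61 on the fadrozole arrays and 0.11, -0.64 and 2.62 on the control arrays. One control array lay near the high fadrozole arrays and one fadrozole array near the low control arrays, so its difference of 1.23 carried a standard error of 1.34. It was 0.07 in the larger run of slides and 3.55 in the smaller, and 0.45 without fadrozole replicate 1 and 2.50 without fadrozole replicate 3.

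Among the other glycine receptor genes, glra1 ran from -1.96 to -0.41 on the fadrozole arrays and from -2.43 to 1.07 on the control arrays, with a difference of -0.73 ± 0.96. By contrast, glra3 lay between -0.18 and 0.04 on the fadrozole arrays and between -0.15 and 0.11 on the control arrays, with a difference of -0.03 (95% interval -0.57 to 0.52). Markers of other brain regions and the eye, of which 12 genes were measured, had 7 higher and a median difference of 0.04, but single markers lay far to both sides. The hindbrain and spinal cord gene hoxb5a was at -2.57 ± 0.33 and the cone opsin gene opn1sw1 at 1.25 ± 0.47, both with no overlap between groups. These were the 2 of the 12 with an unadjusted p under 0.05 in limma, against 4.09% of all genes. The rest of the list had both signs. The hox genes hoxb3a, hoxa3a and hoxd3a were at 0.40 ± 0.35, 0.18 ± 0.59 and -0.26 ± 1.12, and the eye gene gnat1 at -0.09 ± 0.30. Also lower were egr2b at -0.70 ± 0.48 and en2b at -1.35 ± 0.81. The genes en2a, oxt, pvalb7 and ca8 were at 0.15 ± 1.01, 0.51 ± 0.65, 0.01 ± 0.21 and 0.06 ± 0.23. The part of these markers' tissues in the glycine receptor values was not tested.

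The 6 GABA genes covered synthesis, receptor channels and receptor transport, and none differed by more than its standard error. The glutamate decarboxylase genes gad1b and gad2, whose enzymes make GABA, were at -0.11 ± 0.33 and -0.13 ± 0.24. The gad2 levels were 0.11, -0.05 and -0.09 on the fadrozole arrays, against -0.12, 0.36 and 0.14 on the control arrays, and the groups overlapped. Its 95% interval ran from -0.73 to 0.46.

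The GABA-A beta subunit gene gabrb2a had levels of -0.22, 0.44 and -0.02 on the fadrozole arrays, against 0.11, 0.33 and -1.04 on the control arrays. The difference of 0.26 ± 0.44 rested on control replicate 3, and without it the sign turned, to -0.16. The rho subunit gene gabrr2b, whose relatives are best known from the retina, ranged from -1.94 to -0.005 on the fadrozole arrays and from -2.58 to 0.15 on the control arrays. Its differences were -1.37 in the larger run of slides and 2.58 in the smaller, and the difference of the group means over all arrays was -0.05 ± 0.91. The genes gabarapa and gabarapl2, whose proteins bind GABA-A receptors in transport and also act in autophagy, were at 0.16 ± 0.32 and -0.17 ± 0.26. The gabarapl2 levels of -0.21, -0.23 and -0.12 on the fadrozole arrays were close together, against 0.11, 0.22 and -0.39 on the control arrays, which lay on both sides of them.

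Monoamine receptors, all of them coupled to G proteins, were measured by 9 genes, with 8 lower and a median difference of -0.38. No gene among them had an unadjusted p under 0.05, and the groups overlapped for each. The only serotonin receptor gene, htr5ab, had levels of -1.80, -0.30 and -0.54 on the fadrozole arrays, against 0.11, -0.81 and 0.46 on the control arrays. Its difference of -0.80 ± 0.53 came to -0.35 without fadrozole replicate 1 and had opposite signs in the runs of slides, -1.46 in the larger and 0.50 in the smaller.

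Of the dopamine receptor genes, those of the D2 type, drd2a, drd2b and drd2l, were at -0.48 ± 0.87, -0.24 ± 0.77 and -0.42 ± 0.95. Each varied widely within groups: drd2l, for example, stood at 1.17, -0.23 and -2.47 on the fadrozole arrays, against 0.48, -0.89 and 0.14 on the control arrays. The drd2b arrays of replicate 2, at 1.88 with fadrozole and 1.59 in the control, were the highest of each group. The related receptor gene drd3 was the only one of the 9 members that was higher, at 0.10, 0.27 and 0.19 on the fadrozole arrays, against -1.68, -0.25 and 0.24 on the control arrays. Here the fadrozole arrays agreed closely, and the difference of 0.75 ± 0.52 fell to 0.19 without control replicate 1.

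The 4 adrenergic genes encode alpha 2 receptors, which in mammals restrain transmitter release from noradrenergic and other endings. All 4 were lower, at -0.32 ± 0.25 for adra2c, -0.48 ± 0.41 for adra2b, -0.38 ± 0.94 for adra2da and -0.01 ± 0.34 for adra2db. The adra2c levels were -0.31, -0.41 and 0.09 on the fadrozole arrays, against -0.009, 0.19 and 0.14 on the control arrays, so fadrozole replicate 3 lay among the controls. Without that array the median difference of the 4 genes was 0.08, against -0.35 with it. For adra2b the levels, averaged over 2 probe sets, were 0.05, -0.33 and -1.35 on the fadrozole arrays, against -0.17, -0.09 and 0.06 on the control arrays. The close control levels are those of the average. Singly, the probe sets read -0.94 and 1.07 on control replicate 3, and -2.30 and -0.41 on fadrozole replicate 3. The adra2b difference came to -0.07 without fadrozole replicate 3. The adra2da levels were 1.87, -0.85 and -1.32 on the fadrozole arrays, against -0.22, -0.25 and 1.30 on the control arrays, and its sign turned without that same array, to 0.23. The fifth alpha 2 gene on the array, adra2a, which the rule leaves out, went the other way at 1.33 ± 0.67, and its groups did not overlap.

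Grouped by how the receptor works, a grouping made after the values were seen and therefore not tested, 9 of the 10 genes of G protein-coupled receptors were lower, with a median difference of -0.40. Of the 17 genes of receptor channels 12 were higher, with a median of 0.19. Over all genes 50% were lower and 50% higher. The count for G protein-coupled receptors leaned on one array, with 5 of 10 lower and a median of 0.01 without fadrozole replicate 3. In the larger run of slides 8 of the 10 were lower, against 47.7% of all genes, and in the smaller run, which is 1 array against 1, 6 of 10, against 52.7%. For receptor channels the larger run had 11 of 17 higher, against 52.3% of all genes, and the smaller 16, against 47.3%. That smaller run also had 8 of the 11 genes of enzymes and postsynaptic proteins higher. By contrast, 4 of the 10 genes of G protein-coupled receptors and 2 of the 5 genes matched by symbol only were higher in it. The count over all members, 30 of 43 (69.8%), includes the receptor channels. In that comparison of 1 array against 1, the excess was thus shared by enzymes and postsynaptic proteins but not by the remaining classes. In the larger run 4 of these 11 genes of enzymes and postsynaptic proteins were higher and 7 lower. Leaving out single arrays gave 10 to 13 receptor channel genes higher. With adra2a added, 9 of 11 genes of G protein-coupled receptors were lower. In mammals the M2, alpha 2, D2, D3 and 5-HT5A receptors, relatives of those measured here, all couple to the inhibitory class of G proteins. By these relatives, the G protein-coupled members held no receptor that couples to stimulatory G proteins.

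The 7 genes of kinases and scaffolds of the postsynaptic density had 3 higher, 4 lower and a median difference of -0.05, and the groups overlapped for each. That median had no stable sign: it was 0.19 without fadrozole replicate 3, 0.11 without control replicate 1 and 0.05 without control replicate 3. It was also above 0 with quantile normalisation (0.03), array weights (0.02) and the median of probe sets (0.07). In the larger run of slides 5 of the 7 were lower, and in the smaller run all 7 were higher. The kinase gene camk2d1, which encodes a calcium/calmodulin-dependent kinase, had levels of -0.52, 0.04 and -0.36 on the fadrozole arrays, against 0.45, -0.25 and 0.13 on the control arrays. Its difference was -0.39 ± 0.30, with opposite signs in the larger (-0.73) and smaller (0.29) run of slides. The sister gene camk2d2 was at 0.26 ± 0.28, from probe sets at 0.06 ± 0.28 and 0.46 ± 0.34. The scaffold gene dlg3, a relative of the PSD-95 gene, stood at 0.23, 0.46 and -0.14 on the fadrozole arrays, against -0.41, 0 and 0.14 on the control arrays, a difference of 0.28 ± 0.29. Its relatives dlg1a and dlg5a were at -0.05 ± 0.31 and -0.05 ± 0.26. Of the genes for proteins that bind these scaffolds, dlgap4a was at -0.16 ± 0.29 from 3 probe sets that differed in sign, at -0.60, -0.03 and 0.16. The other, dlgap1a, was at 0.40 ± 0.81, with control replicate 2 at -2.01 and fadrozole replicate 1 at -1.03 as its low arrays.

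The symbol rule also took 5 genes whose products are not receptors or postsynaptic proteins. These are the glutaredoxin genes glrx, glrx3 and glrx5, which act in thiol redox chemistry and iron-sulfur handling, grinab, a gene of a membrane protein family linked to cell survival, and dlgap5, whose protein acts in the mitotic spindle. They were at 0.21 ± 0.43, -0.06 ± 0.27, -0.03 ± 0.22, 0.35 ± 0.38 and 0.63 ± 0.80. Without them the member median was -0.04 and the count of unadjusted p under 0.05 remained at 2, now of 38 genes (5.26%). The dlgap5 level was 2.09, -0.004 and 0.68 on the fadrozole arrays, against 1.61, -0.87 and 0.14 on the control arrays, and all 3 of its probe sets were higher, at 0.50, 0.71 and 0.69. The gene's difference was 0.05 without fadrozole replicate 1 and 1.29 without control replicate 1. In these averages replicate 1 was the highest and replicate 2 the lowest of both groups. On 1 of the probe sets, however, fadrozole replicate 2 was the highest of its group, at 1.07.

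How far arrays of one group differed from each other varied widely among members. The pooled SD on the log2 scale ran from 0.11 for glrx5 to 1.98 for glra4b, with a median of 0.47, against 0.53 for all genes. Kinases and scaffolds, with a median of 0.29, glutamate receptor channels, also 0.29, and GABA genes, 0.37, had the lowest medians. The glutamate genes ran from 0.15 to 0.67. Their median is that of grin1a after averaging, while its probe sets taken singly were at 0.44 and 0.56. Among kinases and scaffolds dlgap4a, also 0.29, had probe sets at 0.49, 0.73 and 0.43, but dlg3, with 1 probe set, was at 0.29 too. Dopamine receptors had a median of 1.18, and the nicotinic subunits 0.87. Low spread and a large difference met in chrm2a, whose pooled SD of 0.29 stood at the 24.5th percentile of all genes. For 18 of the 43 members the 95% interval of the difference lay within 2-fold in either direction. No such count was made over all genes, so it is not known whether this share is particular to the members. Without signal levels it was not tested whether the widely varying receptors were dim on the array.

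**Figure D3:**
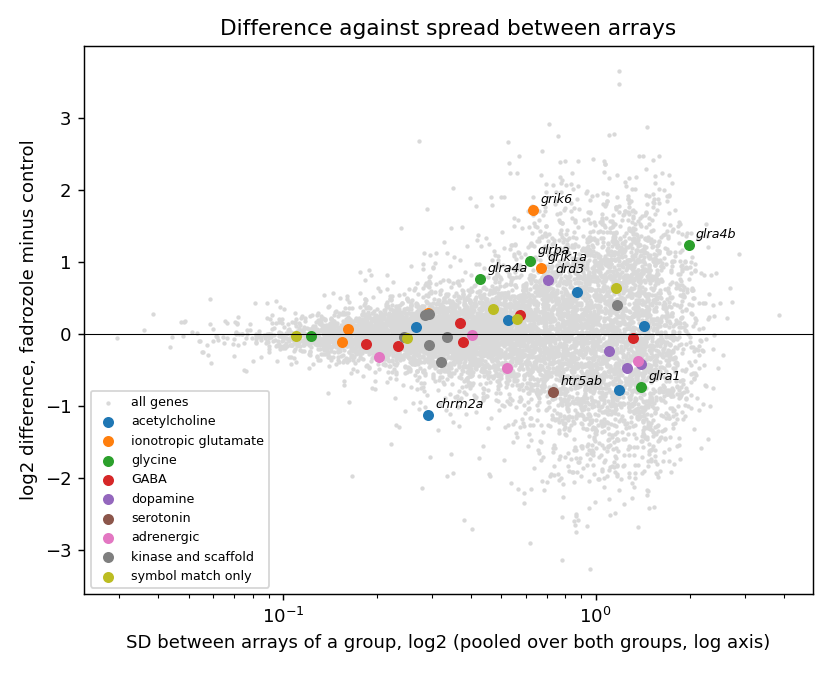
Log2 difference, fadrozole minus control, against the SD between arrays of a group (log axis), for all 8793 genes (grey) and the members (coloured by system). The gene chrm2a, at an SD of 0.29 and a difference of -1.12, lies below most genes of like spread, while glra4b, at 1.98, is among the most variable genes.

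The runs of slides share no array, so each gives its own measurement of every difference. Of the 43 members 24 (55.8%) had the same sign in both, against 48.6% of all genes. For glutamate receptor channels and glycine receptors it was 4 of 5 each, for adrenergic receptors 3 of 4 and for kinases and scaffolds 2 of 7. The median difference of the GABA genes was -0.01 in the larger run and -0.09 in the smaller, and that of the glycine receptors 0.07 and 0.47. The median of the dopamine receptors had opposite signs in the runs, at -0.58 in the larger and 0.41 in the smaller.

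**Figure D4:**
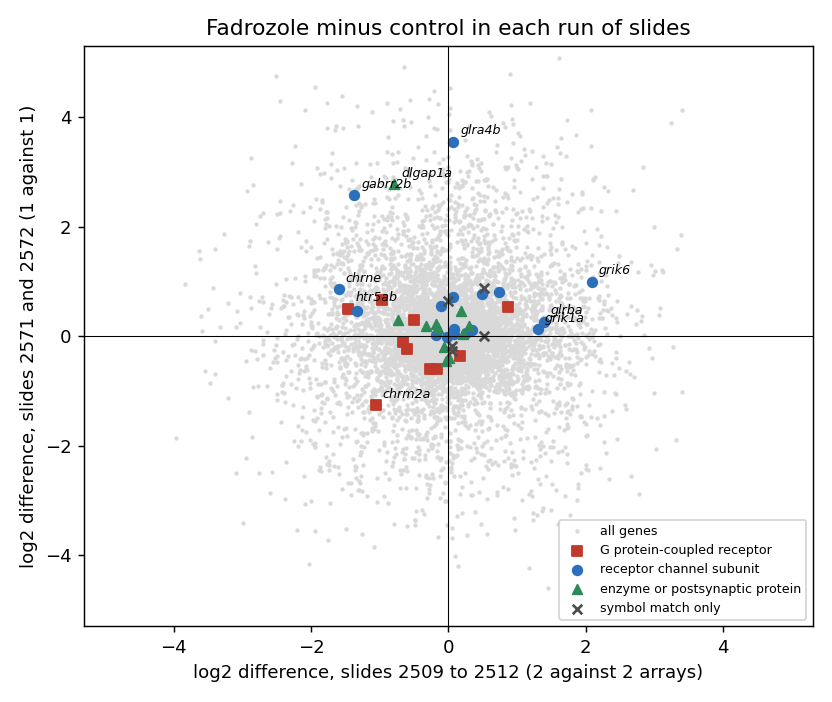
Log2 difference, fadrozole minus control, in the larger run of slides (horizontal, 2 against 2 arrays) and the smaller (vertical, 1 against 1), for all genes (grey) and the members by receptor class. The gene chrm2a lies low in both (-1.06 and -1.25) and grik6 high in both (2.08 and 0.99), while gabrr2b and dlgap1a have opposite signs.

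Counted by probe set, 27 of the 52 were higher (against 49.9% of all probe sets), 2 had an unadjusted p under 0.05 in limma (against 4.23% of all probe sets) and 0 passed the adjusted test. The groups did not overlap for 4 (against 7.83%). Of the 7 members with several probe sets, 5 had all of them on one side of 0, the exceptions being dlgap4a and glrx3. The probe sets of grin1a were at 0.32 ± 0.38 and 0.25 ± 0.44, and those of adra2b at -0.58 ± 0.71 and -0.38 ± 0.47. Both chrm2a and grik6 were read by a single probe set, so no second probe set checks them.

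Other genes of the synapse were taken from lists of transporters, enzymes, scaffolds and adhesion proteins. Among transporters and enzymes that supply or clear transmitters, 10 genes were measured, 4 higher and 6 lower, with a median difference of -0.04, and 0 had an unadjusted p under 0.05 in limma. The smallest p belonged to the dopamine transporter gene slc6a3 at -0.42 ± 0.40, acetylcholinesterase, ache, at 0.48 ± 0.54, and the glial glutamate transporter gene slc1a3a at -0.17 ± 0.24. Among postsynaptic scaffold, adhesion and partner genes, 13 were measured, 5 higher and 8 lower, with a median of -0.04, again 0 with an unadjusted p under 0.05. These 13 also held the presynaptic neurexin genes nrxn1a and nrxn2a. The presynaptic adhesion gene nrxn2a was at -1.93 ± 0.92, its postsynaptic partner gene nlgn1 at 1.34 ± 0.80, and the scaffold gene homer3b at 0.37 ± 0.30. The nlgn1 level was 1.41, 0.89 and 0.65 on the fadrozole arrays, against 0.11, 0.95 and -2.12 on the control arrays, with control replicate 3 again the lowest.

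General neuron markers were read alongside the receptors. Of 9 measured markers 3 were higher and 6 lower, with a median difference of -0.04 and 0 with an unadjusted p under 0.05 in limma. The groups did not overlap for 1 of the 9, gap43, at -0.16 ± 0.21, against 7.82% of all genes. The median level of the list lay between 0.06 and 0.11 on the fadrozole arrays and between 0.05 and 0.12 on the control arrays. Median differences were 0.02 for 8 radial glia markers, 0.03 for 5 oligodendrocyte markers, -0.21 for 6 microglia markers and 0.05 for 3 red cell markers. An unadjusted p under 0.05 in limma was found for 2 of the radial glia and 1 of the microglia markers, against 4.09% of all genes. It was found for 0 of the oligodendrocyte and red cell markers. Groups did not overlap for 2 radial glia, 1 oligodendrocyte, 1 microglia and 0 red cell markers. Among the radial glia markers cyp19a1b, the brain aromatase gene, was at -1.11 ± 0.31 and the Notch target gene her4.2 at -0.75 ± 0.25, both lower on all fadrozole arrays. Among the microglia markers the leukocyte gene ptprc was at 1.54 ± 0.56 and the transcription factor gene spi1b at -0.75 ± 0.36. Of the 5 oligodendrocyte markers 3 were higher and 2 lower, with mbpa at 0.52 ± 0.23, without overlap, and sox10 at 1.26 ± 0.84. These lists thus held single markers that differed more than the list medians. The part of these cell types in the receptor values was not tested.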

How the data were processed

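RNA labelled with biotin was hybridised to one-colour arrays, per the labels' protocols. Each deposited value is a linear ratio, per probe set, to the median of the control arrays, which is exactly 1 in all 15617 rows. The ratios run from 0.0177 to 106.7. How the arrays were scanned, scaled and summarised is not given in the sources used here. With no signal levels, no filter on dim probe sets was applied, so all 43 members entered the fit. Precision is limited by the number of arrays.

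From these ratios log2 values were computed. Probe sets were first expressed relative to their own mean, and the median of these deviations on an array, centred over the 6 arrays, was subtracted from it. The array maker's 115 control probe sets were left out. Of the remaining 15502, 10795 carried 1 gene symbol, 135 several (1 of them with a symbol matching the rule, not used) and 4572 none. Probe sets of a gene were averaged. A RefSeq table of the GRCz12tu assembly held all 43 members, with 0 changes of symbol. The groups were compared with limma 3.58.1 (lmFit and eBayes, R 4.3.3). The tests were two-sided and p-values were adjusted by Benjamini-Hochberg over 8793 genes. The fitting code was checked on simulated independent normal noise with known changes added. That simulation held no slide runs and no ratios to a control median, so it does not vouch for the test on these data. Errors after ± are standard errors of the difference on the log2 scale, except where SD is written.

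The members, gene lists and alternatives were chosen with earlier results of these data known. Values per array were given for members with unadjusted p under 0.05 in limma or without overlap. They were also given for most of the 3 members per system with the smallest p, and for some further members. Of the 3 per system, drd2a, glra4a, camk2d2, grinab and glrx were described without all their array values. Of the other synapse genes, the 3 with the smallest p per list were named.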

Additional observations from a re-analysis of the deposited data

How the results depend on the processing

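None of the 8793 genes, and so none of the 43 members, passed the adjusted limma test under any of the 18 alternatives (other scalings, variance priors, probe-set rules, blocks, each array left out). At an unadjusted p under 0.05 there were 360 genes, but 178 with quantile normalisation, and 365 to 562 with an array left out, the highest without control replicate 2. With the larger run of slides alone, the medians of dopamine, glycine and glutamate channel genes were -0.583, 0.0724 and 0.0840, gad2 turned to 0.00246, glrx to -0.00301 and glrx3 to 0.0528. With the median of its probe sets dlgap4a turned to 0.0667. With the slide run as a block 1 scaffold or partner gene had an unadjusted p under 0.05, where the fit without it had 0.

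With an array left out, the median of all members ran from -0.00558 to 0.102, and medians ran from -0.512 to 0.331 for dopamine, 0.451 to 0.939 for glycine, 0.0671 to 0.473 for glutamate channels and 0.00301 to 0.500 for genes matched by symbol only. Of the 10 genes of G protein-coupled receptors 5 to 9 were lower, with medians from -0.567 to 0.0145, and the median of receptor channels ran from 0.0743 to 0.406. Differences that turned ran from -0.158 to 0.529 for gabrb2a, -1.36 to 0.234 for adra2da, -1.25 to 0.278 for drd2a, -1.26 to 0.560 for drd2l, -0.174 to 0.500 for glrx and -0.180 to 0.121 for glrx3. The count of scaffold or partner genes with an unadjusted p under 0.05 ran from 0 to 2, and that of member probe sets from 2 to 4.

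Deviations of same-numbered arrays from their group means correlated with r of 0.07, 0.19 and 0.09 across genes, and those of differently numbered arrays with r from -0.12 to 0.02. Each array thus correlated best with its own number. The main fit did not take the numbers as pairs, and whether they mark pairs was not tested. With the replicate number as a block, 3 members and 478 genes had an unadjusted p under 0.05, and none passed the adjusted test. The third member, besides chrm2a and grik6, was glra4a (limma, unadjusted p = 0.0268).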
